A study of Arabidopsis thaliana with 12 samples.

Results

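SIRB (AT1G50170) and HEMA3 (AT2G31250) encode plastid enzymes of tetrapyrrole synthesis, the pathway that leads to siroheme, heme and chlorophyll. They were taken as the single-gene probes that the platform annotation assigns to these loci, which gave 1 probe each, 353 for SIRB and 1995 for HEMA3, out of 3439 probes and 692 single-gene probes. The array measured total RNA of Arabidopsis thaliana roots in the ecotype Wassilevskija. There were 6 samples of wild type (WT) and 6 of aap3, which the labels describe as a mutant without the amino acid transporter AAP3. Replicates carry the numbers 1 to 6 in each genotype. The labels do not say whether they came from separate plants, pools or growths, nor do they give plant age or the nature of the mutant allele. No single-gene probe was paired with AAP3, so its own transcript is not analysed here.

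Tetrapyrrole synthesis in plants starts from glutamate bound to its tRNA, which glutamyl-tRNA reductase (GluTR) turns into glutamate-1-semialdehyde, the precursor of 5-aminolevulinic acid. Uroporphyrinogen III, made further along, is the point where siroheme synthesis leaves the path to heme and chlorophyll. There it is methylated by UPM1 and oxidised, and SIRB, the sirohydrochlorin ferrochelatase, inserts iron to complete siroheme. Siroheme is the cofactor of nitrite reductase and sulfite reductase, which link this branch to the assimilation of nitrate and sulfate that roots carry out. HEMA1, HEMA2 and HEMA3 encode forms of GluTR, of which HEMA1 is the one known for chlorophyll synthesis in green tissue. In the TAIR10.1 annotation SIRB lies at 18581998 to 18583832 on chromosome 1, a gene of 1835 bases with 3 RefSeq transcripts. HEMA3 lies at 13319621 to 13321597 on chromosome 2, with 1 transcript. Which transcript or exon the probes read is not given in the sources used here.

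Both genes were selected on earlier results of the comparison between aap3 and WT in these same samples, so their levels and differences are given as a description, without a test. SIRB was higher in aap3 than in the WT sample of the same number in 6 of 6 pairs, and HEMA3 was lower in 6 of 6. A single direction in all 6 pairs was common on this array: of 3439 probes, 12% were higher in aap3 in all 6 pairs and 11.9% were lower in all 6. As the choice of both genes used this comparison, nothing is read from their place among these probes. On the log2 scale after normalization the mean difference was 0.35 for SIRB (1.27-fold) and -0.23 for HEMA3 (1.17-fold higher in WT). In roots as a whole, fewer cells of a type and less RNA per cell cannot be told apart.

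SIRB completes siroheme, and its probe gave low deposited intensities, which are linear values on an unstated scale. In WT the SIRB intensity was 0.203 in replicate 1, 0.157 in replicate 2, 0.167 in replicate 3, 0.173 in replicate 4, 0.121 in replicate 5 and 0.154 in replicate 6. In aap3 it was 0.222, 0.191, 0.177, 0.251, 0.144 and 0.205 in replicates 1 to 6. Replicate 5 was the lowest sample in each genotype, and the highest was replicate 1 in WT and replicate 4 in aap3. The genotypes overlapped, as 3 of 6 aap3 samples lay above the highest WT sample. Mean SIRB intensity was 0.163 ± 0.027 (SD, n = 6) for WT and 0.198 ± 0.037 (SD, n = 6) for aap3. The SIRB values were close to the floor that was set for low values at 0.200 times each sample's median. They lay between 1.23 and 2.48 times that floor and never at it. No background reading was used here, so how much of these intensities is signal from the transcript was not tested.

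HEMA3 was the GluTR form with a single-gene probe, and that probe was well clear of the floor, at 7.51 to 11.4 times the floor value. The floor is a percentile of the values and not a limit of detection. How much of this intensity is signal from HEMA3, and how much from other GluTR transcripts, was not tested. In WT the HEMA3 intensity was 0.935 in replicate 1, 1.0 in replicate 2, 1.12 in replicate 3, 1.11 in replicate 4, 1.12 in replicate 5 and 1.1 in replicate 6. In aap3 it was 0.793, 0.738, 0.970, 0.892, 0.853 and 0.854 in replicates 1 to 6. Replicates 1 and 2 were the lowest samples of each genotype. All aap3 samples other than replicate 3 lay below the lowest WT sample, so the genotypes overlapped through that sample. Mean HEMA3 intensity was 1.06 ± 0.08 (SD, n = 6) for WT and 0.850 ± 0.080 (SD, n = 6) for aap3.

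**Figure D1:**
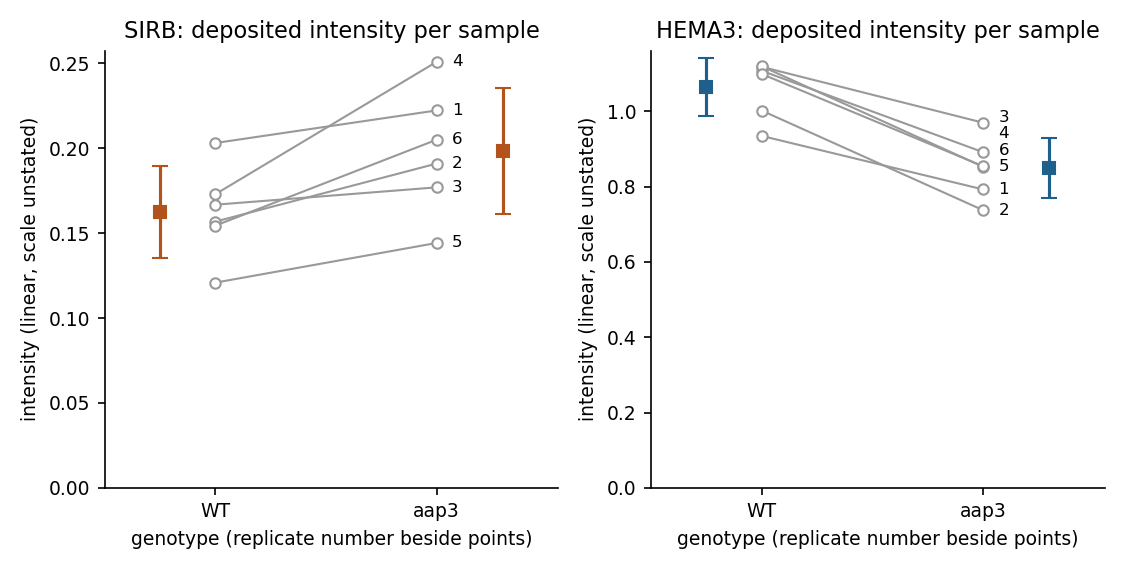
Deposited intensity (linear, scale unstated) of SIRB and HEMA3 in WT and aap3 roots. Circles are samples, grey lines join samples of the same replicate number, and squares with bars are the mean ± SD of 6 samples. SIRB lines rise from WT to aap3 and HEMA3 lines fall, in 6 of 6 pairs each, and replicate 5 is the lowest SIRB sample on both sides.

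In normalized log2 values, the SIRB mean was -1.68 ± 0.26 (SD, n = 6) for WT and -1.34 ± 0.28 (SD, n = 6) for aap3. The difference was 0.35 ± 0.15 (SE). Across same-numbered samples the SIRB differences were 0.19, 0.35, 0.15, 0.59, 0.31 and 0.48 in replicates 1 to 6, with a mean of 0.35 ± 0.17 (SD, 6 pairs). Pair 4 gave the largest difference and pair 3 the smallest. In the deposited intensities, the ratio of aap3 to WT for SIRB ran from 1.06 in pair 3 to 1.45 in pair 4. With 0.25 times the sample median added before log2 in place of the floor, the SIRB difference was 0.20. Its size thus depends on the treatment of low intensities, as an added constant shrinks log2 differences of low values by construction. It also varied with the scaling, as the SIRB difference was 0.28 without scaling and 0.35 with median scaling alone.

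On the normalized log2 scale the HEMA3 mean was 1.03 ± 0.11 (SD, n = 6) for WT and 0.80 ± 0.14 (SD, n = 6) for aap3. The difference was -0.23 ± 0.07 (SE). Across same-numbered samples the HEMA3 differences were -0.16, -0.35, -0.09, -0.19, -0.29 and -0.27 in replicates 1 to 6, with a mean of -0.23 ± 0.10 (SD, 6 pairs). Pair 2 differed most and pair 3 least. In the deposited intensities, the ratio of aap3 to WT for HEMA3 ran from 0.736 in pair 2 to 0.867 in pair 3. The size of the HEMA3 difference varied with the scaling. It was -0.33 without scaling, where the median log2 difference over all probes was -0.05, and -0.26 with median scaling alone.

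The replicate pairs were not equally distant from each other. Taking the differences of all probes, pair 1 resembled pair 2, pair 3 resembled pair 4 and pair 5 resembled pair 6 (r across probes of 0.54 to 0.65), more than any other combination did (0.32 to 0.35). For the other genes below, p-values therefore reflect a spread among samples that may be partly technical. The SD, SE and counts out of 6 pairs given for SIRB and HEMA3 share this limit. Averaged over these couples, the SIRB difference was 0.27 for replicates 1 and 2, 0.37 for 3 and 4, and 0.40 for 5 and 6. The HEMA3 difference was -0.26, -0.14 and -0.28 in the same order.

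**Figure D2:**
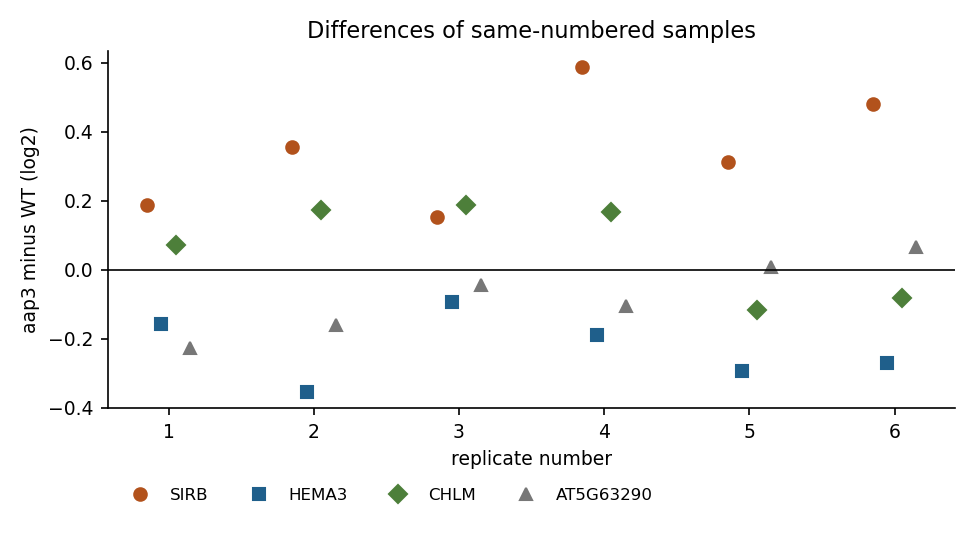
Difference between aap3 and WT (normalized log2 values) of same-numbered samples, by replicate number, for SIRB, HEMA3, CHLM and AT5G63290. CHLM and AT5G63290 are other genes listed for the pathway, AT5G63290 only as a candidate. SIRB lies above 0 and HEMA3 below 0 in each pair, while CHLM and AT5G63290 have pairs on both sides.

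Replicates differed within a genotype in a way that same-numbered WT and aap3 samples shared for the most part, a measure apart from the difference between genotypes. For SIRB, replicate 5 lay below its genotype's mean by a similar amount in both, at -0.42 in WT and -0.46 in aap3 on the log2 scale. Replicate 1 lay above it, at 0.37 and 0.21. For replicate 4 of SIRB the values were 0.07 in WT and 0.31 in aap3. Replicates 3 and 6 of SIRB had opposite signs in the genotypes, at 0.033 and -0.16 for replicate 3 and at -0.067 and 0.068 for replicate 6. For HEMA3, replicate 1 lay at -0.17 in WT and -0.10 in aap3, and replicate 2 at -0.09 and -0.22. The replicate number accounted for 90.1% of the variation of SIRB within genotypes and for 85.4% of that of HEMA3. The median over the 2859 probes above the floor in all samples was 81.5%, so both shares are of the size that is usual on this array. Samples without shared deviations would still give a sizeable share in this measure. What the numbers stand for is not given in the labels.

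**Figure D3:**
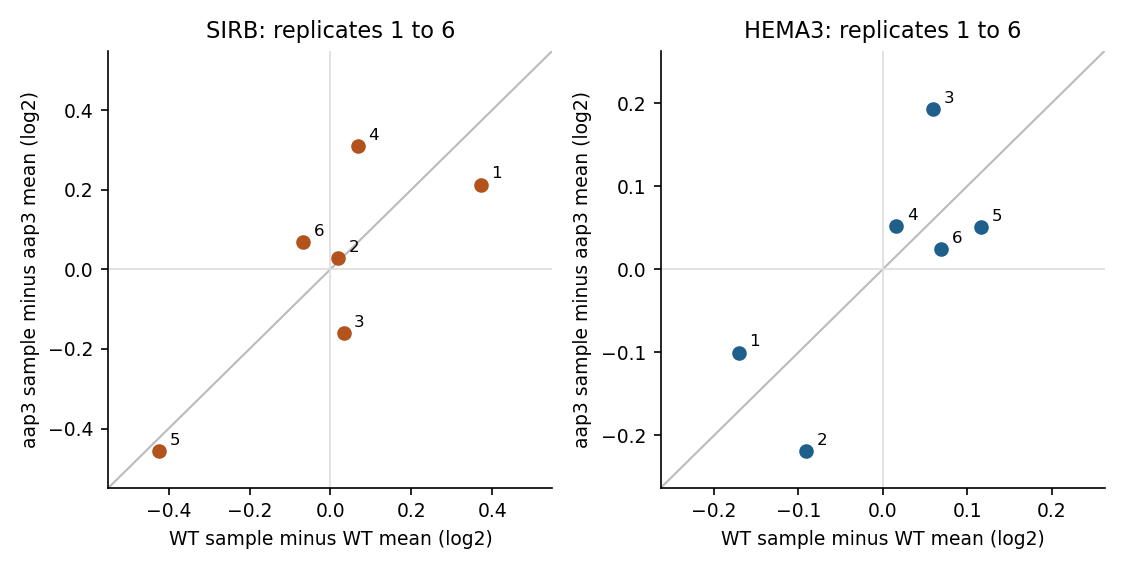
Deviation of each WT sample from the WT mean (x axis) against that of the aap3 sample of the same number from the aap3 mean (y axis), both in normalized log2 values, for SIRB and HEMA3. Points are replicate numbers and the grey diagonal marks equal deviations. Replicate 5 of SIRB and replicates 1 and 2 of HEMA3 lie low in both genotypes.

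The rest of the pathway was barely covered by single-gene probes. The lists held 59 genes of tetrapyrrole synthesis and its regulators, heme breakdown, the siroheme-dependent enzymes, nitrate uptake, and the assimilation of nitrogen and sulfate. Of these 59 genes, 4 had such a probe: SIRB, HEMA3, CHLM and AT5G63290. Another 4 were matched only by probes with several genes, which are not named, and 51 had no probe here. HEMA1, HEMA2, UPM1, nitrite reductase and sulfite reductase are among these and are not analysed here. Of the 18 listed genes of siroheme-dependent enzymes, nitrate uptake, and the assimilation of nitrate, ammonium and sulfate, 0 had a single-gene probe.

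Neither of the other genes listed for the pathway passed the test. In limma over all probes, 172 of 3439 (5%) had an adjusted p under 0.05, 86 higher and 86 lower in aap3, and of CHLM and AT5G63290 0 of 2 did. At an unadjusted p under 0.05, which 17.7% of all probes reached, the count was also 0 of 2, and with the replicate number as a block it was 0 of 2, where 17.1% of all probes were called. CHLM, the magnesium-protoporphyrin IX methyltransferase of the chlorophyll branch, had intensities from 0.565 to 0.904 with a median of 0.595 in WT and from 0.593 to 0.784 with a median of 0.629 in aap3. The aap3 range lay inside the WT range. Its log2 difference was 0.07 ± 0.15 (SE, limma adjusted p = 0.932), with 4 of 6 pairs higher in aap3.

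AT5G63290 was placed in the heme list as a candidate homologue of a coproporphyrinogen oxidase and carries no symbol in the gene table. Its intensities ran from 1.05 to 1.22 with a median of 1.14 in WT and from 0.921 to 1.05 with a median of 1.0 in aap3. In deposited intensities 5 of 6 aap3 samples lay below all WT samples, and in normalized log2 values 2 of 6 did. Its normalized log2 difference was -0.08 ± 0.05 (SE, limma adjusted p = 0.526), lower in aap3 in 4 of 6 pairs. Without scaling between samples the difference was -0.18 and was called (limma adjusted p = 0.0299), a setting in which 71 probes were called higher and 210 lower. The call of AT5G63290 thus depended on the scaling.

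The labelled tissue could not be checked by markers of roots, since 0 of 9 listed had a single-gene probe. Of 16 listed leaf genes 2 did, SBPASE and PRK, enzymes of the Calvin cycle. Of all 3439 probes, 2859 were above the floor in 12 of 12 samples, and so were both of these genes. Their summed intensity ran from 1.19 to 1.84 with a median of 1.48 in WT and from 1.12 to 1.53 with a median of 1.39 in aap3, with wide overlap. The log2 difference was -0.15 ± 0.24 for SBPASE (SE, limma adjusted p = 0.87) and 0.14 ± 0.09 for PRK (adjusted p = 0.498). The part of green tissue or plastid content in the SIRB and HEMA3 values was not tested.

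Probes numbered close to the members were examined because neighbouring numbers can share a place on an array, which the sources used here do not state. Among 14 probes within 12 numbers of SIRB and above the floor in all samples, 7 had a log2 difference above 0 and 7 below, with a median of 0.02 and a range from -0.24 to 0.28. Among 13 such probes near HEMA3, 7 lay above 0 and 6 below, with a median of 0.01 and a range from -0.42 to 0.33. The 4 nearest higher-numbered probes to HEMA3 all lay below 0, from -0.42 to -0.19, and of the 4 nearest lower-numbered probes 1 did. The part of probe position in the SIRB and HEMA3 values was not tested.

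**Figure D4:**
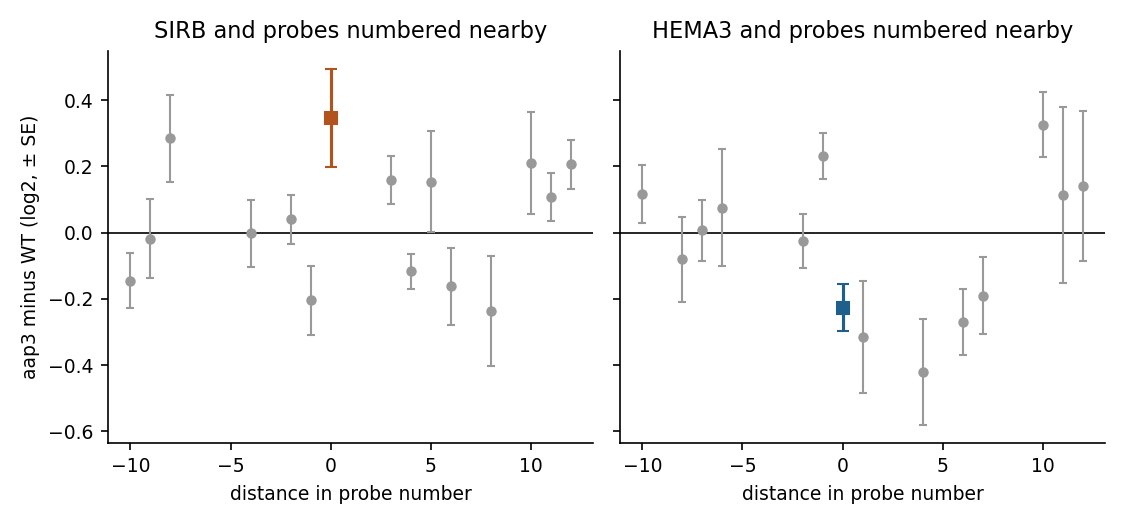
Log2 difference between aap3 and WT (± SE) of SIRB and HEMA3 (squares) and of probes within 12 numbers of each (grey circles), against the distance in probe number. Probes near SIRB and probes near HEMA3 lie on both sides of 0. The 4 nearest higher-numbered probes to HEMA3 lie below 0, while those further up and the probe numbered just below HEMA3 lie above 0.

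The single-gene probes that varied most like each member within genotypes were found after subtraction of each genotype's mean, over 12 samples and among 563 candidates. These correlations rest on deviations that same-numbered samples share, and the samples are not independent, so they are descriptions. For SIRB the closest were AT3G61870 (r = 0.86), AT4G24160 (0.84), AT3G50270 (0.80), AT4G20300 (0.80) and AT4G08280 (0.79). Spearman's rho for these was lower, from 0.45 to 0.78. None of these 5 was called between genotypes in limma (adjusted p of 0.507 to 0.982), and their log2 differences ran from -0.53 to 0.03.

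For HEMA3 the closest were AT1G11470 (r = 0.92), AT4G13200 (0.87), CBL (0.86), AT1G35210 (0.85) and AT3G61540 (0.85). CBL (AT3G57050) is cystathionine beta-lyase, an enzyme of methionine synthesis in plastids. Spearman's rho ran from 0.69 to 0.87 in these 5. AT3G61540, AT1G11470 and AT1G35210 are read by probes 3852, 3853 and 3859, close in number to each other and far from HEMA3. The log2 difference between aap3 and WT was 0.02 ± 0.21 for CBL (SE, limma adjusted p = 1) and ran from -0.04 to 0.16 over the 5, of which 0 were called. Of the 10 probes closest to SIRB and HEMA3 within genotypes, 0 passed the test between genotypes, where 5% of all probes did. With the replicate block it was also 0 of 10, where 17.1% of all probes were called. So few probes cannot be told apart from the share over all probes.

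The size of both differences was followed over 21 other settings, of which 5 change only the SE by construction (the replicate block, averaged replicates, both probe filters and the variance model). Over the 16 that can move a difference, SIRB ran from 0.20 to 0.44 and HEMA3 from -0.33 to -0.18. For SIRB the ends of the range were the offset and the omission of aap3 replicate 5, the lowest aap3 sample. For HEMA3 they were deposited values without scaling and the omission of aap3 replicate 2. With the replicate block the SE fell from 0.15 to 0.06 for SIRB and from 0.07 to 0.04 for HEMA3, as the shared deviations were taken out. With the 10th percentile as the floor, 5 WT samples and 1 aap3 sample of SIRB lay at the floor and the difference was 0.26, while HEMA3 was unchanged at -0.23.

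**Figure D5:**
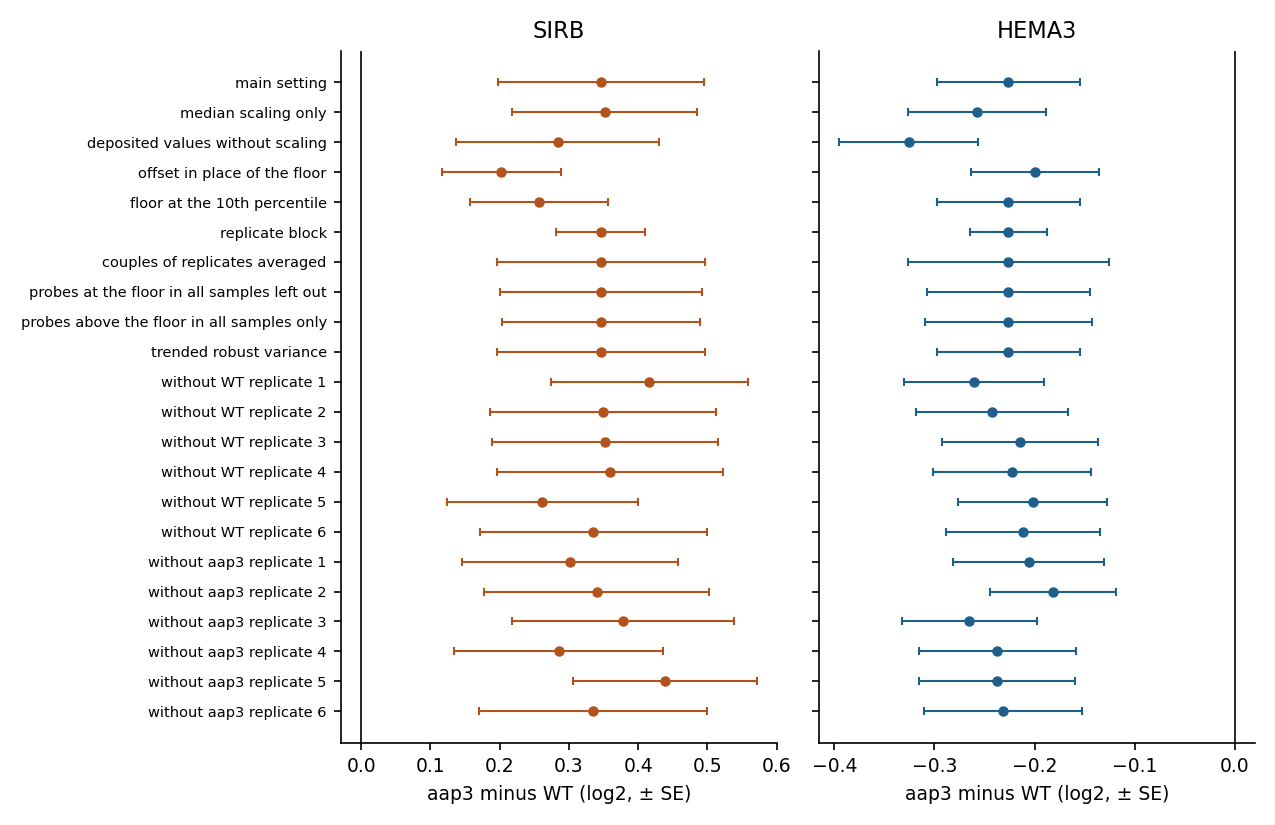
Log2 difference between aap3 and WT (± SE) of SIRB and HEMA3 under the main setting and 21 alternatives, 5 of which change only the SE. All SIRB values lie above 0, between 0.20 and 0.44, and all HEMA3 values below 0, between -0.33 and -0.18; the x axes of the panels differ.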

How the data were processed

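The authors deposited 1 intensity per probe and sample, linear and of unstated scale. Array type, dyes, background correction and any normalization before deposit were not given in the sources used here. Division by the sample median put these deposited intensities on a common scale. Values below 0.200 times the median, which is the 5th percentile of all positive values, were raised to that floor, and the log2 values were quantile normalized. A limma 3.58.1 fit (R 4.3.3) of genotype alone covered all 3439 probes, with Benjamini-Hochberg adjustment over them and calls at an adjusted p under 0.05. The fit was tested on simulated data in which all samples were drawn independently. That simulation does not cover the deviations that same-numbered samples share here. Probes were matched to loci through the platform annotation and the TAIR10.1 gene table. WT and aap3 samples of the same number shared their deviations from the genotype means (r across probes of 0.73 to 0.75 in each pair). Differences were therefore also taken within pairs of the same number. The labels do not state this pairing, and it rests on these correlations. The main fit of genotype alone did not use the pairing, so its SE and adjusted p keep the shared deviations in the spread. Among the fits, only the replicate block used it. Named genes were SIRB and HEMA3, the listed pathway and marker genes with a single-gene probe, and the 5 single-gene probes most like each of SIRB and HEMA3 within genotypes. Members and lists were chosen with earlier results of these data known. Alternatives covered scaling, low values, probe filters, the variance model, the replicate block, averaged replicates, and leaving out each sample.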

Additional observations from a re-analysis of the deposited data

Results flagged for a closer look

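Of 12 checks for a sample far from the others of its genotype, made for SIRB, HEMA3, CHLM, AT5G63290, SBPASE and PRK, 1 stood out, against about 1 in 20 by chance. PRK, phosphoribulokinase of the Calvin cycle, was higher in aap3 replicate 1, at 0.71 in normalized log2 values against 0.32 to 0.47 in the other aap3 samples, a gap of 0.626 of the range. SIRB and HEMA3 had no such sample in either genotype.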

How the results depend on the processing

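Of 21 alternatives, 16 could move the SIRB and HEMA3 differences and 5 change only their SE. Under the 16, both kept their direction, which the choice of these genes favours, and moved by less than the SD between replicates within a genotype. Much of that SD is shared by same-numbered samples. Without scaling HEMA3 moved from -0.23 to -0.33, a shift about as large as the SD of its pair differences (0.10). Leaving out each sample gave 0.26 to 0.44 for SIRB and -0.27 to -0.18 for HEMA3, 128 to 189 called probes, and 0 called genes among CHLM and AT5G63290. The 172 calls became 587 with the replicate block, 281 with deposited values unscaled (71 higher, 210 lower), and 1 with replicates 1 and 2, 3 and 4, and 5 and 6 averaged (373 at an unadjusted p under 0.05), a fit with 3 values per genotype. Deposited values also brought 1 call among CHLM and AT5G63290, and turned CHLM to -0.016. The replicate block changed no call of these genes, of SBPASE or of PRK. Replicates 1 and 2, 3 and 4, and 5 and 6 may not be independent, so the 6 samples per genotype may hold fewer separate units. No background reading was used, which matters most for SIRB near the floor.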
